A study of Mus musculus with 76 samples.

Results

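The genes described here are 42 secreted or structural products of peripheral organs, chosen by name from the 55487 genes in the deposited tables. They comprise 10 hormone, neuropeptide and islet genes, 11 genes of plasma proteins made by liver and gut, the thyroid gene Tg, 5 milk protein genes, the photoreceptor genes Sag and Rbp3, 9 genes of gut and stomach, the testis gene Fabp9, the kidney gene Umod, and the lung genes Sftpc and Scgb1a1. The series measured RNA in mice labelled as strain SOD1-G93A, with the genotypes Sod1Mut (SOD1 below) and WT; this transgene carries a human mutant of superoxide dismutase that causes motor neuron disease. The thymus was digested and 4 populations were sorted by flow cytometry: medullary thymic epithelial cells (mTEC, 12 libraries), cortical thymic epithelial cells (cTEC, 11), regulatory T cells (Treg, 12) and T cells labelled CD4 (11). Each was taken from SOD1 and WT mice at day 120 and day 30, written d120 and d30, with 3 libraries a group except WT cTEC d30 and WT CD4 d30, which had 2. There were also 6 unsorted whole thymus and 6 inguinal lymph node libraries at d120 (3 SOD1 and 3 WT each), and 18 libraries of Treg in culture, 3 SOD1 and 3 WT at each of T0 (no activation), T2 and T20, whose time unit the labels do not give. The labels do not give the sex of the mice, the number of mice per library or the sorting markers.

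Tissue-restricted antigens are proteins of other organs that mTEC make at low levels, cell by cell, so that developing T cells meet them before leaving the thymus. T cells that bind such proteins strongly are deleted or diverted to the regulatory lineage. The nuclear protein Aire, and for a further set of genes the transcription factor Fezf2, drive much of this expression. The cortex selects T cells on other peptides, and cTEC are known for the thymus-specific proteasome subunit Psmb11 and not for peripheral antigens.

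RefSeq promoters on GRCm38.p6 were matched for 30 members, 32 promoters in all. The last 100 bases before the start are shown for 6 of them because they span the range of sequence among genes that were all far higher in mTEC than in T cells: the pair of gut lectins Reg3g and Reg3b, the milk gene Csn2, the islet gene Ppy, and the neural genes Gad1 and Cartpt. Each reads 5′ to 3′ on the gene's strand, and capitals mark the letters TATAAA.
Reg3g: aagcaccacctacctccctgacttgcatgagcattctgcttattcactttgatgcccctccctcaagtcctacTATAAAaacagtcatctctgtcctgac
Reg3b: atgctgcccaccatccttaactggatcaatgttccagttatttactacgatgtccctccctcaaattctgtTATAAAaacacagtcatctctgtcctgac
Csn2: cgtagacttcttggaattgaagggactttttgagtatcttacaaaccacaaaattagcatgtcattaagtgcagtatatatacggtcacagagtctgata
Ppy: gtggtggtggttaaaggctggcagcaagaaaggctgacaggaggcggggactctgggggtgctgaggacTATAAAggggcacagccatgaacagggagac
Gad1: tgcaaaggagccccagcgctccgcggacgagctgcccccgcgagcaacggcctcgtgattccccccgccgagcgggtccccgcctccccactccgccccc
Cartpt: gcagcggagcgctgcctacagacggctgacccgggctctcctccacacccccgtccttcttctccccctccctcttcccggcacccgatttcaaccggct

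These windows lie at chr6:78468875-78468974 (minus strand) for Reg3g, chr6:78370785-78370884 (plus) for Reg3b, chr5:87699426-87699525 (minus) for Csn2, chr11:102101320-102101419 (minus) for Ppy, chr2:70562029-70562128 (plus) for Gad1 and chr13:99900684-99900783 (minus) for Cartpt. The letters TATAAA on the gene's strand within the last 60 bases occurred in 7 of the 32 promoters (21.9%), against 944 of the 32851 promoters in the RefSeq table (2.87%). Counting either strand, the shares were 21.9% of the members' promoters and 3.92% of all. The genes with the match were Reg3g, Reg3b, Ppy, Crp, Fabp1, Pmch and Apob. The members' 250 bases before the start held a median of 2 CG pairs (0 to 22), against 6 (0 to 56) over all promoters. Gad1 with 17 and Cartpt with 22 CG pairs stood at the CG-rich end. The windows of Reg3g and Reg3b aligned with 76 identities, 20 mismatches and 8 gap positions (73.1% identity), and their genes lie 92.8 kb apart. Of the 42 members, 16 have another member within 1 Mb: Fga, Fgb and Fgg on chromosome 3, Csn2, Csn1s1 and Csn3 on chromosome 5, Reg3g and Reg3b on 6, Apoa4, Apoa1 and Apoc3 on 9, Ppy and Pyy on 11, and Tff1, Tff2 and Tff3 on 17. A match of letters describes these windows only.

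Depth varied widely: total counts ranged from 15135 to 36919936 in mTEC, 1269529 to 16776303 in cTEC, 1944589 to 34151147 in Treg, 837050 to 14047347 in CD4 and 63887 to 894958 in lymph node. Levels below are CPM, a gene's counts per 1000000 counts of its library. A library labelled SOD1 mTEC d30 replicate 1 holds the 15135 counts, so 1 count there is 66.1 CPM. SOD1 cTEC d120 replicate 3 held 7627 detected genes, against 13264 to 15679 in the other cTEC d120 libraries. Psmb11 in that library was at 8.17 CPM, against 173 to 308 CPM in the others. WT mTEC d120 replicate 3 had 14369 detected genes, the fewest among mTEC d120 libraries, and WT Treg d30 replicate 2 stood apart from the other Treg d30 libraries, as described with the T cells. The population labels otherwise went with their markers: Aire averaged 1043.5 ± 476 CPM in mTEC and 3.88 ± 7.27 CPM in cTEC at d120 (SD, n = 6 each). Sod1, whose reads include the transgene where it maps, was higher in SOD1 than in WT mTEC at d120 (log2 fold change 3.06) and at d30 (2.93), with no overlap of the genotypes on either day. The table's headers for d30 sorted libraries all begin with SOD1, so genotype was taken from the sample titles; Sod1 was 66.1 (1 count), 319.9 and 304 CPM in mTEC d30 libraries titled SOD1, against 33.3, 35.4 and 30.6 CPM in those titled WT.

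In mTEC, all 42 members had at least 1 count in some library. The whole set took 2700 to 7860 CPM of a library at d120 (median 4454, n = 6) and 2672 to 4624 CPM at d30 (median 4030, n = 6). Csn2, the beta-casein of milk, and Reg3g, an antibacterial lectin of the gut, together gave 43.3% to 75.0% of the members' counts in each mTEC library. At d120 Csn2 had 1259.5, 2126 and 1171 CPM in SOD1 mTEC, against 1758, 1620.4 and 662 CPM in WT mTEC. At d30 it had 1057, 1511 and 1854 CPM in SOD1 mTEC, against 1076, 1099.6 and 942 CPM in WT mTEC. The genotypes overlapped on both days, and WT replicate 3 at d120 was the lowest of the 12 libraries. Reg3g had 4633, 1106.5 and 1989.9 CPM in SOD1 mTEC d120, against 979, 662 and 1188 CPM in WT mTEC d120. At d30 it had 859, 735 and 1440.5 CPM in SOD1 mTEC, against 802, 1776 and 565 CPM in WT mTEC. Here SOD1 replicate 1 at d120 stood above every other mTEC library. Per kilobase of annotated exon, with 2114 bases for Reg3g and 6926 for Csn2, Reg3g was higher than Csn2 on both days. It had a median of 543 CPM per kb, against 379 at d30, and Csn2 had 208 at d120 and 159 at d30. The Csn2 value is a lower one than its mature RNA would give, since the exon length used includes a retained intron.

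**Figure D1:**
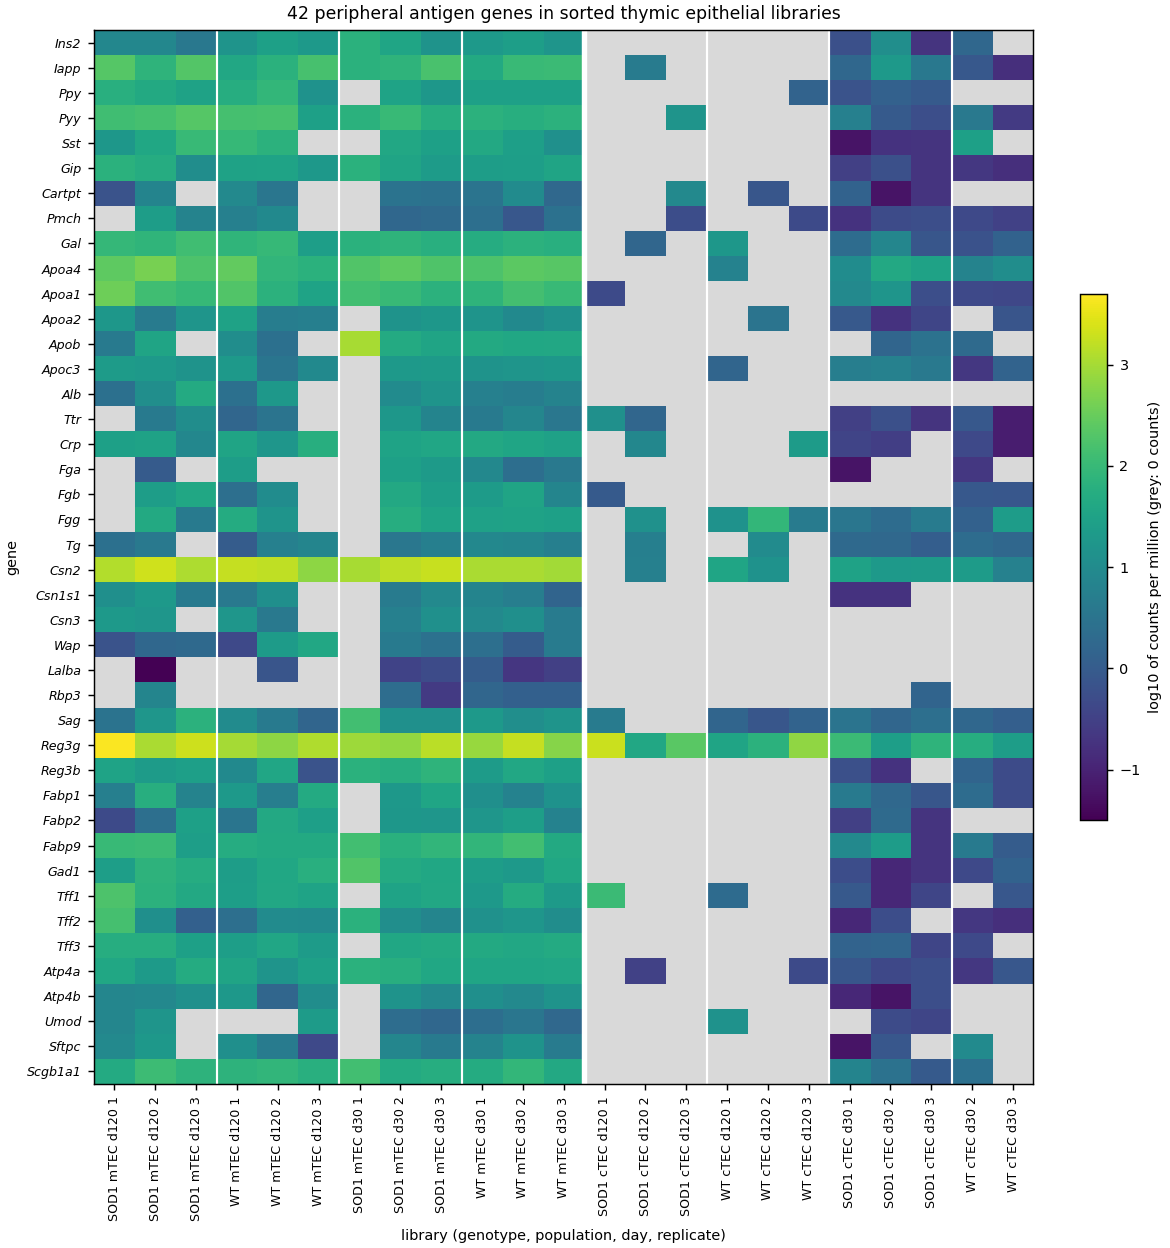
Level of the 42 genes (rows) in the 23 sorted thymic epithelial libraries (columns), as log10 of CPM, with grey where a gene had 0 counts. Rows are filled nearly throughout in mTEC, patchy in cTEC d30 and mostly grey in cTEC d120, with Csn2 and Reg3g as the brightest rows.

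Among hormone genes, Iapp (amylin, co-secreted with insulin) had 209, 77.0 and 203 CPM in SOD1 mTEC d120, against 41.2, 67.1 and 153 CPM in WT mTEC d120. Pyy, a gut satiety peptide, had a median of 145 CPM over mTEC d120 libraries and 67.9 CPM over the 5 deeper mTEC d30 libraries. Gal (galanin) had 86.5 and 60.1 CPM by the same measure. These 3 were detected in every mTEC library. Ppy (pancreatic polypeptide), Sst (somatostatin), Gip (an incretin of the gut) and Ins2 (insulin) had medians of 50.4, 55.4, 32.2 and 11.9 CPM at d120 and of 28.1, 28.7, 25.4 and 19.2 CPM at d30. Gad1, which makes the neurotransmitter GABA and is an autoantigen of islets, had 45.9 CPM at d120 and 40.3 CPM at d30. The hypothalamic peptides were the lowest of the group: Cartpt had a median of 2.11 CPM at d120 and ran from 1.84 to 10.4 CPM at d30, and Pmch had medians of 6.33 CPM at d120 and 1.98 CPM at d30. Pmch reads are uncertain, since it shares 435 exonic bases with Parpbp on the opposite strand. Parpbp had a median of 5.74 CPM in mTEC and 5.48 CPM in cTEC, and use of strand in the counting is not given.

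Among plasma proteins, the apolipoprotein gene Apoa4 led, with 252, 430 and 174 CPM in SOD1 mTEC d120, against 283, 81.8 and 67.7 CPM in WT mTEC d120. At d30 it ran from 177 to 259 CPM in the 5 deeper libraries. Its neighbour Apoa1, the main protein of high-density lipoprotein, had 359, 125 and 94.1 CPM in SOD1 mTEC d120 and 197, 70.5 and 32.4 CPM in WT mTEC d120. Apoa4 overlaps 2 annotated transcripts on the opposite strand by 632 and 634 exonic bases, and whether the counting used strand is not given in the sources used here. The 3 fibrinogen chains, which form the clotting protein, were each at 0 in some d120 libraries. Fgb was at 0 in 2 of 6 libraries and at 39.9 CPM in the highest, Fgg was at 0 in 2 and at 50.2 CPM in the highest, and Fga was at 0 in 4 and at 24.4 CPM in the highest. At d30 all 3 had counts in each of the 5 deeper libraries, from 2.38 CPM upward. Alb (serum albumin) ranged from 0 to 46.7 CPM at d120 and from 5.06 to 15.3 CPM at d30, and Crp (C-reactive protein) from 8.10 to 56.4 CPM at d120 and from 30.6 to 43.7 CPM at d30. Apoc3, an inhibitor of lipoprotein lipase, had medians of 17.3 CPM at d120 (3.35 to 22.4) and 18.1 CPM at d30 (14.7 to 21.8), and Apoa2, the second protein of high-density lipoprotein, of 10.9 CPM (4.60 to 31.0) and 15.2 CPM (9.30 to 17.5). Ttr (transthyretin, a thyroid hormone carrier) had 2.41 CPM at d120 (0 to 11.2) and 7.17 CPM at d30 (3.67 to 17.6).

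The other milk genes were far below Csn2. Csn1s1 and Csn3 had medians of 8.32 and 10.6 CPM at d120 and of 5.27 and 8.94 CPM at d30, and Lalba, which sets lactose synthesis, did not exceed 0.744 CPM at d120 or 1.03 CPM at d30 in the deeper libraries. Among gut and stomach genes, Tff3 and Tff1 (trefoil peptides of mucus) and Atp4a (the gastric proton pump) had medians of 33.5, 43.0 and 31.3 CPM at d120. Tff3 had the smallest coefficient of variation of the set at d30, 7.45% over 5 libraries. Reg3b, the neighbour of Reg3g, had medians of 24.99 CPM at d120 (0.666 to 38.3) and 41.6 CPM at d30 (22.7 to 75.6). Fabp1 and Fabp2, fatty acid carriers of liver and gut, had 13.7 and 15.02 CPM at d120 and 14.1 and 17.4 CPM at d30, and Atp4b, the second subunit of the gastric pump, had 9.71 CPM at d120 and 12.02 CPM at d30. The lung secretory protein gene Scgb1a1 had 46.7, 117 and 73.5 CPM in SOD1 mTEC d120 and 71.1, 83.1 and 59.96 CPM in WT mTEC d120, and was detected in all 12 mTEC libraries. Fabp9, a lipid-binding protein of sperm, had medians of 49.2 CPM at d120 and 82.1 CPM at d30. The lung surfactant gene Sftpc had medians of 6.70 CPM at d120 and 6.74 CPM at d30, and Tg (thyroglobulin) of 3.32 CPM at d120 and 5.51 CPM at d30. Rbp3 (a retinoid carrier of the eye) had counts in 1 of 6 mTEC d120 libraries, at 7.31 CPM. Umod (uromodulin) had counts in 3 of 6, up to 22.4 CPM. Both had counts in each of the 5 deeper d30 libraries, Rbp3 from 0.247 to 2.29 CPM and Umod from 1.73 to 3.51 CPM.

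The spread between mTEC libraries was wider at d120. Over the 42 members the median coefficient of variation was 81.5% at d120 (6 libraries) and 36.1% at d30 (5 libraries, without SOD1 replicate 1). At d120 16 members were at 0 in at least 1 library and 35 values were 0, while in the 5 deeper d30 libraries no value was 0. WT mTEC d120 replicate 3, with 4503239 counts, lacked 13 members, and SOD1 mTEC d120 replicate 3, with 1605090 counts, lacked 9. The d30 libraries with the fewest counts among the 5, 3268506 and 4045886, lacked none. The number of all genes detected, at full depth, was 14369 to 27663 in mTEC d120 and 24906 to 30293 in the 5 deeper d30 libraries. No spread over all genes was computed, so neither the wider spread nor the zeros are shown to be particular to the members. Fezf2 in WT mTEC d120 replicate 3 was 161 CPM, the lowest of the mTEC d120 libraries, and Aire was 772 CPM. Their part in the missing members was not tested.

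To set depth aside, the number of members expected to have at least 1 count was computed for a draw of 1000000 counts from each library that held as many. It was 27.7 to 40.4 of 42 in mTEC d120 (median 35.4, n = 6) and 40.1 to 41.2 in mTEC d30 (median 40.6, n = 5). In cTEC it was 3.54 to 8.73 at d120 (median 6.10, n = 6) and 13.03 to 21.5 at d30 (median 19.4, n = 5). The cTEC ranges of the 2 days did not overlap, and each lay below every mTEC library drawn. The number of all genes detected in cTEC, at full depth, did not overlap between the days either. It was 7627 to 15679 at d120 and 20851 to 24970 at d30. No such number was computed for the draw, so neither the fall in cTEC nor the lower median in mTEC d120 is shown to be particular to the members. In Treg it was 2.82 to 6.36 at d120 and 4.07 to 7.42 at d30 with WT replicate 2, at 20.98, left aside. In CD4 it was 2.95 to 6.05 at d120 and 1.98 to 4.34 at d30.

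**Figure D2:**
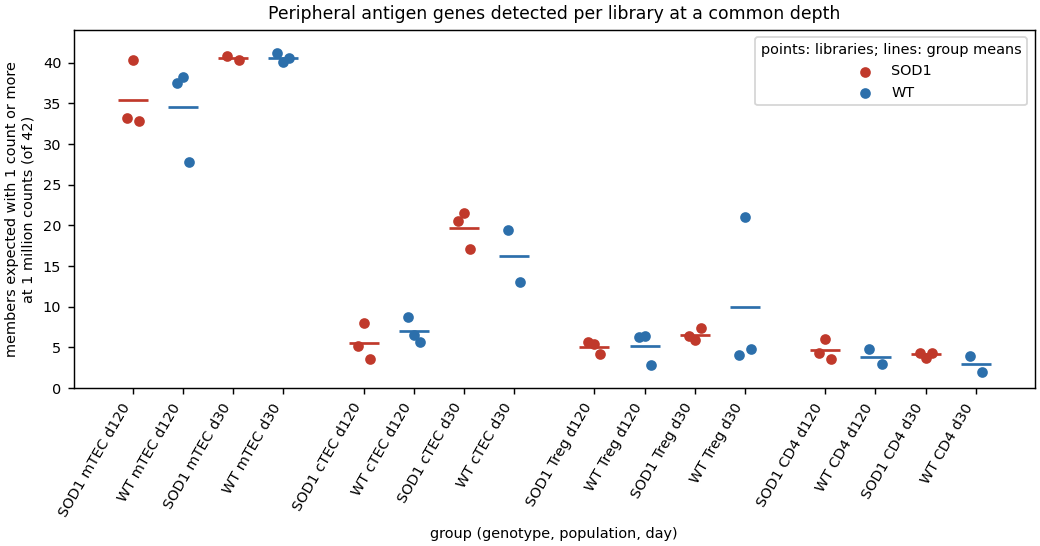
Members expected with 1 count or more in a draw of 1000000 counts, by group; points are libraries and lines are group means. mTEC libraries sit at 27.7 to 41.2 of 42, cTEC at 3.54 to 8.73 on d120 and 13.03 to 21.5 on d30, and T cells at 1.98 to 7.42 except WT Treg d30 replicate 2 at 20.98.

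mTEC exceeded cTEC at most members on both days. With edgeR's quasi-likelihood test and Benjamini-Hochberg adjustment over all genes, 35 of the 41 members that passed the filter on low counts were higher in mTEC at d120 and 35 of 41 at d30, and none was lower. Over all 20223 genes tested, 23.7% were higher in mTEC at d120 and 17.8% at d30. Most members could pass the filter only through mTEC, so the counts describe the members and do not test the set. The 6 that did not pass the test at d120 were Cartpt, Ttr, Fgg, Tg, Rbp3 and Umod. At d30 they were Pmch, Fgg, Tg, Rbp3, Umod and Sftpc. Lalba did not pass the filter. With trended dispersion 34 were called at d120 and 35 at d30. Every mTEC library lay above every cTEC library for 22 of the 41 members with 10 or more counts in these libraries at d120, where 4.25% of all such genes did so. At d30 the count was 17 of 42 (background 4.47%), where SOD1 mTEC d30 replicate 1 was at 0 for 25 members.

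Csn2 averaged 1433 ± 513 CPM in mTEC and 9.42 ± 14.4 CPM in cTEC at d120 (SD, n = 6 each), a log2 fold change of 7.91 (SE 0.75, edgeR adjusted p = 3.84e-23). At d30 it averaged 1257 ± 351 CPM in mTEC (n = 6) and 20.3 ± 8.86 CPM in cTEC (n = 5), a log2 fold change of 5.91 (SE 0.78, edgeR adjusted p = 1.44e-11). No cTEC library came near the mTEC range for this gene. Reg3g differed less. It averaged 1759.5 ± 1475 CPM in mTEC and 495 ± 726 CPM in cTEC at d120 (log2 fold change 1.92, SE 0.57, edgeR adjusted p = 0.00528). It averaged 1029.5 ± 471 CPM in mTEC and 59.0 ± 37.1 CPM in cTEC at d30 (log2 fold change 4.12, SE 0.71, edgeR adjusted p = 5.39e-07). The libraries overlapped at d120, where SOD1 cTEC had 1884, 41.5 and 239 CPM and WT cTEC had 34.9, 70.1 and 699 CPM. Without SOD1 cTEC d120 replicate 3 the d120 call was lost, with an edgeR adjusted p of 0.0609.

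Counts were also summed over libraries. At d120 the summed cTEC libraries held 12370064 counts, and 21 of the 42 members had 0 of them. For those the mTEC level was at least 378-fold higher for Scgb1a1, 354-fold for Fabp9, 219-fold for Gad1 and 210-fold for Sst, against a floor of 0.243 CPM for 3 counts over the group. At the low end at d120, Ttr stood at 1.11-fold, Tg at 1.42-fold, Fgg at 2.30-fold, Reg3g at 2.96-fold and Tff1 at 3.46-fold. Single libraries set these d120 ratios. Without SOD1 cTEC d120 replicate 1, the ratio was 6.06 for Ttr (28 of its 33 cTEC counts were in that library), 6.89 for Reg3g (4005 of 6222) and 174 for Tff1. It was 5.02 for Fgg without WT cTEC d120 replicate 2, and 2.46 for Tg without SOD1 cTEC d120 replicate 2. Of the 21 members with cTEC counts at d120, all 21 had a ratio that moved by over 1.5 times without 1 library or had all their cTEC counts in 1 library. The mTEC sum also leaned on 1 library, SOD1 mTEC d120 replicate 2, with 36919936 of the 72744710 counts. At d30 the ratio of mTEC to cTEC had a median of 26.4 over the 42 members, from 3.10 for Tg to 467 for Fga (95% counting interval 129 to 3867, 2 cTEC counts). Alb, Csn3, Wap and Lalba had 0 counts in the 5 cTEC d30 libraries and enter at their bound. Apoa4 shows the difference between the days: it had 323 CPM in summed mTEC and 0.970 CPM in summed cTEC at d120, a ratio of 333, and 233 CPM in summed mTEC and 22.2 CPM in summed cTEC at d30, a ratio of 10.5. Its 12 counts in cTEC d120 came from 1 library. Without SOD1 mTEC d120 replicate 2 the d120 ratio was 220, and without SOD1 cTEC d30 replicate 2 the d30 ratio was 17.5. Intervals and bounds cover counting error only.

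**Figure D3:**
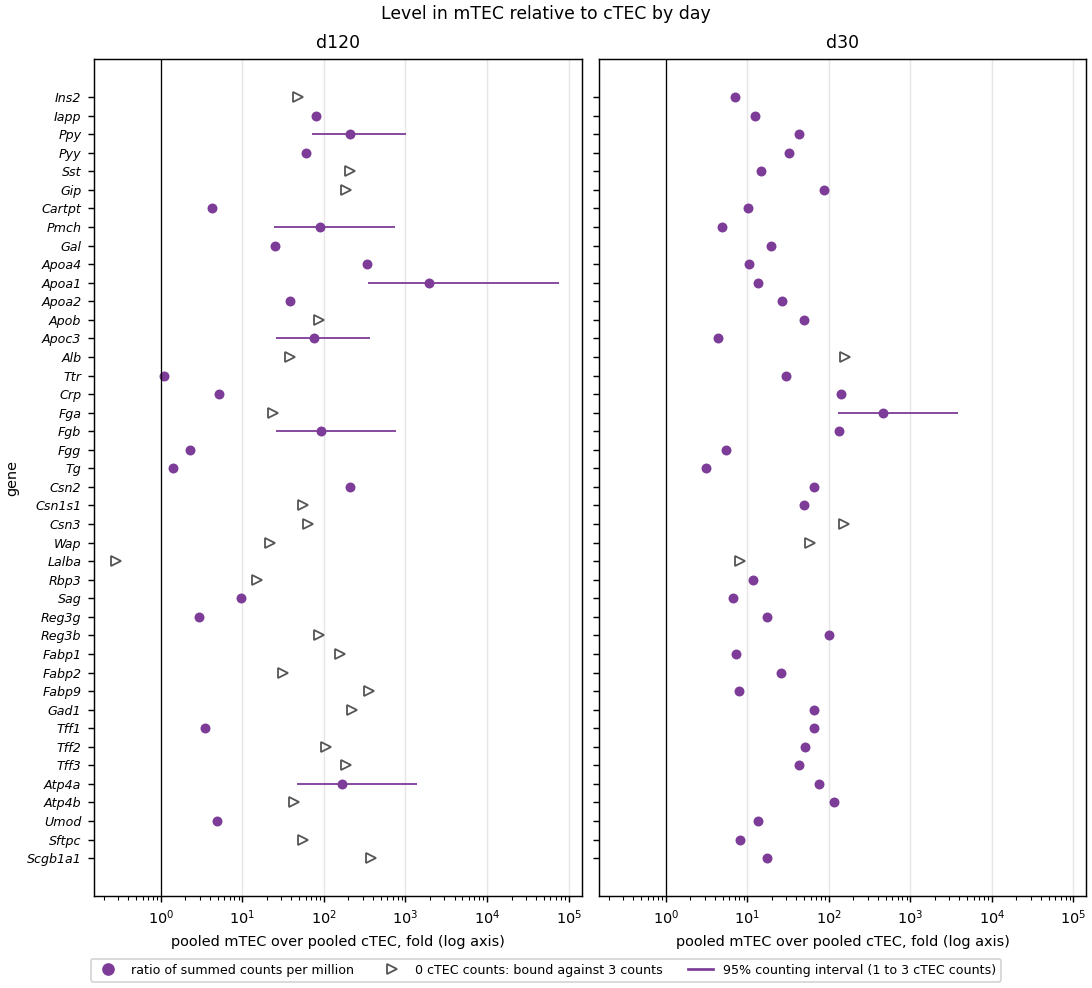
Ratio of summed CPM in mTEC to summed CPM in cTEC for each gene on a log axis, at d120 (left) and d30 (right); open triangles are bounds for genes with 0 cTEC counts and bars are 95% counting intervals for genes with 1 to 3. Every ratio at d30 is 3.10 or more; at d120 21 genes are bounds, and the bound for Lalba, 0.283, lies below 1 because mTEC held only 5 counts.

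The difference between mTEC and cTEC was itself larger at d120 than at d30 for 5 of the 41 members tested (edgeR adjusted p under 0.05, all in the direction of a larger gap at d120, where 1.74% of all genes were called). They were Apoa4, Apoa1, Fabp9, Scgb1a1 and Fabp1. In cTEC these 5 genes had 12, 1, 0, 0 and 0 counts in all d120 libraries, so the fitted differences depend on how the software treats 0 counts. In SOD1 cTEC d30 Fabp9 had 8.90, 23.8 and 0.191 CPM and in WT cTEC d30 4.37 and 1.05 CPM, and Scgb1a1 had 7.16, 2.86 and 0.957 CPM in SOD1 and 2.62 and 0 CPM in WT. With trended dispersion 2 members were called in this comparison, and 8 without SOD1 cTEC d120 replicate 2 or 3 without WT cTEC d30 replicate 2.

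Compared between days within cTEC, 12 members passed the filter (9.35% of all genes were called in either direction). Reg3g was higher at d120, 495 ± 726 CPM (n = 6), than at d30, 59.0 ± 37.1 CPM (n = 5), with a log2 fold change of 3.22 (SE 0.82, edgeR adjusted p = 0.00237). Fabp9 was at 0 in all 6 cTEC d120 libraries and averaged 7.67 ± 9.67 CPM at d30 (edgeR adjusted p = 0.00576). Apoa4 averaged 1.04 ± 2.56 CPM at d120 and 20.6 ± 15.8 CPM at d30 (edgeR adjusted p = 0.00808). None of the 3 calls remained with trended dispersion, and 5 members were called without SOD1 cTEC d120 replicate 3 or without WT cTEC d30 replicate 3. The Reg3g call was lost without SOD1 cTEC d120 replicate 1, its highest cTEC library, and without WT cTEC d30 replicate 3, and the Fabp9 call without WT cTEC d30 replicate 2. Within mTEC 40 members passed, and 7.46% of all genes were called. Pyy was higher at d120, 136 ± 60.9 CPM, than at d30, 69.7 ± 16.8 CPM (n = 6 each, log2 fold change 1.13, SE 0.38, edgeR adjusted p = 0.0419). Apob, the carrier protein of chylomicrons, was lower at d120 (log2 fold change -3.34, SE 1.03, edgeR adjusted p = 0.0214), with a median of 3.55 CPM at d120 and 41.9 CPM in the 5 deeper d30 libraries. Neither call remained with trended dispersion. Of the 12 fits that left out 1 mTEC library, Pyy was called in 2, without SOD1 mTEC d30 replicate 2 and without WT mTEC d120 replicate 3. Apob was called in 9 of the 12, and not without SOD1 mTEC d120 replicate 1, WT mTEC d120 replicate 2 or SOD1 mTEC d30 replicate 1, where 1057 CPM of Apob stood for 16 counts. Without WT mTEC d120 replicate 3, 5 members were called: Pyy, Ppy, Sst and Gal higher and Apob lower.

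Marker lists were summed in the same libraries, and their ranges in cTEC overlapped between the days for cTEC markers and for mTEC markers. The summed mTEC markers (10 genes) had 1708 to 7212 CPM in cTEC d120 and 1258 to 2003 CPM in cTEC d30, while the summed cTEC markers (8 genes) had 8553 to 20017 CPM in cTEC d120 and 11126 to 38924 CPM in cTEC d30. Pth, the parathyroid hormone gene, had 333, 52.2 and 1736 CPM in SOD1 cTEC d120 and 6643, 0 and 0 CPM in WT cTEC d120. At d30 Pth had 345, 95.5 and 114 CPM in SOD1 cTEC and 0 CPM in both WT cTEC libraries. The 6 summed hepatocyte markers were at 0 in 5 of the 6 cTEC d120 libraries and at 0.444 to 132 CPM in mTEC d120. The part of other cells in the cTEC values was not tested.

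The main known drivers of these genes were higher in mTEC. Of 8 regulators of antigen expression, Aire, Fezf2 and Sirt1 were higher in mTEC than in cTEC at d120 and at d30, where 23.7% and 17.8% of all genes were. Fezf2 averaged 362 ± 119 CPM in mTEC and 23.95 ± 23.2 CPM in cTEC at d120, and 351 ± 143 CPM in mTEC and 8.87 ± 4.78 CPM in cTEC at d30. Of 19 transcription factors that define peripheral lineages, 10 were higher and 1 lower in mTEC among 17 tested at d120, and 11 higher and 1 lower among 17 at d30 (3.93% of all genes were lower at d120 and 3.87% at d30). Insm1, a factor of endocrine cells, averaged 74.8 ± 23.9 CPM in mTEC and 1.27 ± 2.73 CPM in cTEC at d120. Spib, also known from B cells, averaged 147 ± 59.97 CPM in mTEC and 4.76 ± 6.03 CPM in cTEC at d120. The factor lower in mTEC on both days was Isl1, with 65.8 ± 26.6 CPM in mTEC and 145 ± 55.8 CPM in cTEC at d120, and 22.8 ± 12.2 CPM in mTEC and 77.1 ± 27.3 CPM in cTEC at d30.

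T cells held little of the set. Against Treg and CD4 together, 38 of 41 members tested were higher in mTEC at d120 and 39 of 41 at d30 (38.2% and 36.9% of all genes were higher), and none was lower. cTEC were higher than T cells for 5 of 41 members at d120 (Reg3g, Csn2, Crp, Fgg and Cartpt), where 19.3% of all genes were higher, and for 22 at d30, where 19.9% were. Without the libraries numbered replicate 2, 2 members were called at d120 and 11 at d30. DESeq2 called 11 members at d120, in either direction. Sag (arrestin of the retina) was lower in cTEC than in T cells at d120, on average 1.41 CPM in cTEC against 14.4 CPM in T cells, where 21.8% of all genes were lower. In CD4 d120 Sag had 16.8, 20.4 and 4.48 CPM in SOD1 and 51.8, 18.5 and 9.56 CPM in WT, and mTEC had a median of 7.31 CPM at d120 (1.55 to 68.5 CPM). The summed members were 13.3 to 38.2 CPM in Treg d120 and 21.1 to 67.4 CPM in CD4 d120.

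WT Treg d30 replicate 2 stood apart from the other 5 Treg d30 libraries. It had 284 counts of Reg3g (40.7 CPM, against 0 to 2.06 CPM in the others), 216 of Csn2 (31.0 CPM, against 0 to 0.623 CPM) and 40 of Apoa4 (5.73 CPM, against 0 to 0.208 CPM). Relative to the mean of WT mTEC d30, these were 3.89%, 2.98% and 2.68%, and Apoa1 and Fabp9 stood at 4.71% and 5.05%. Aire was at 35.1 CPM, or 3.55% of that mean, Fezf2 at 10.7 CPM, or 2.51%, and Krt5, a keratin of medullary epithelium, at 10.6 CPM, or 2.10%. Epcam, H2-Aa and Gad1 lay within the range of the other Treg d30 libraries. Epcam was at 94.7 CPM, against 88.0 to 130 CPM, and H2-Aa at 998 CPM, against 497 to 1130 CPM. Gad1 was at 0.717 CPM, against 0 to 1.55 CPM, and at 2.51% of the WT mTEC d30 mean. That mean was 777 CPM for Epcam, 5340 CPM for H2-Aa and 28.5 CPM for Gad1. The part of carried-over mTEC RNA in these values was not tested. In Treg against CD4 at d30, 3 of 41 members were higher (Csn2, Reg3g and Tff1, with 0.828% of all genes higher). With trended dispersion, or without that library, it was 1, Tff1.

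Tff1, in contrast, was detected in all 12 Treg libraries. It had 3.13, 5.56 and 8.11 CPM in SOD1 Treg d120 and 12.6, 6.47 and 2.16 CPM in WT Treg d120, against 0, 1.46 and 0 CPM in SOD1 CD4 d120 and 1.79, 0 and 0 CPM in WT CD4 d120. Every Treg d120 library lay above every CD4 d120 library, as for 3.81% of all genes, with a log2 fold change of 3.34 (SE 1.17), and the edgeR adjusted p was 0.0541. At d30 it averaged 2.39 ± 1.04 CPM in Treg (n = 6) and 0.0171 ± 0.0382 CPM in CD4 (n = 5), with a log2 fold change of 5.93 (SE 1.54, edgeR adjusted p = 0.0125). At d120 no member passed the test between Treg and CD4 (edgeR, 7.24% of all genes called in either direction). Of the members, 3 had an unadjusted p under 0.05. With the replicate block, median-of-ratios scaling, trended dispersion or library totals, 3790 to 4142 of all 21733 genes had one. Tff1 was called there with the replicate number as a block (edgeR adjusted p = 0.0344), without the libraries numbered replicate 1 (edgeR adjusted p = 0.0192) and with DESeq2 (adjusted p = 0.0478), which also called Gal, lower in Treg. Tff1 shares 221 exonic bases with an annotated antisense gene. Tg reads in T cells are uncertain, since Sla, on the opposite strand within Tg, had a median of 226 CPM in Treg and 194 CPM in CD4.

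**Figure D4:**
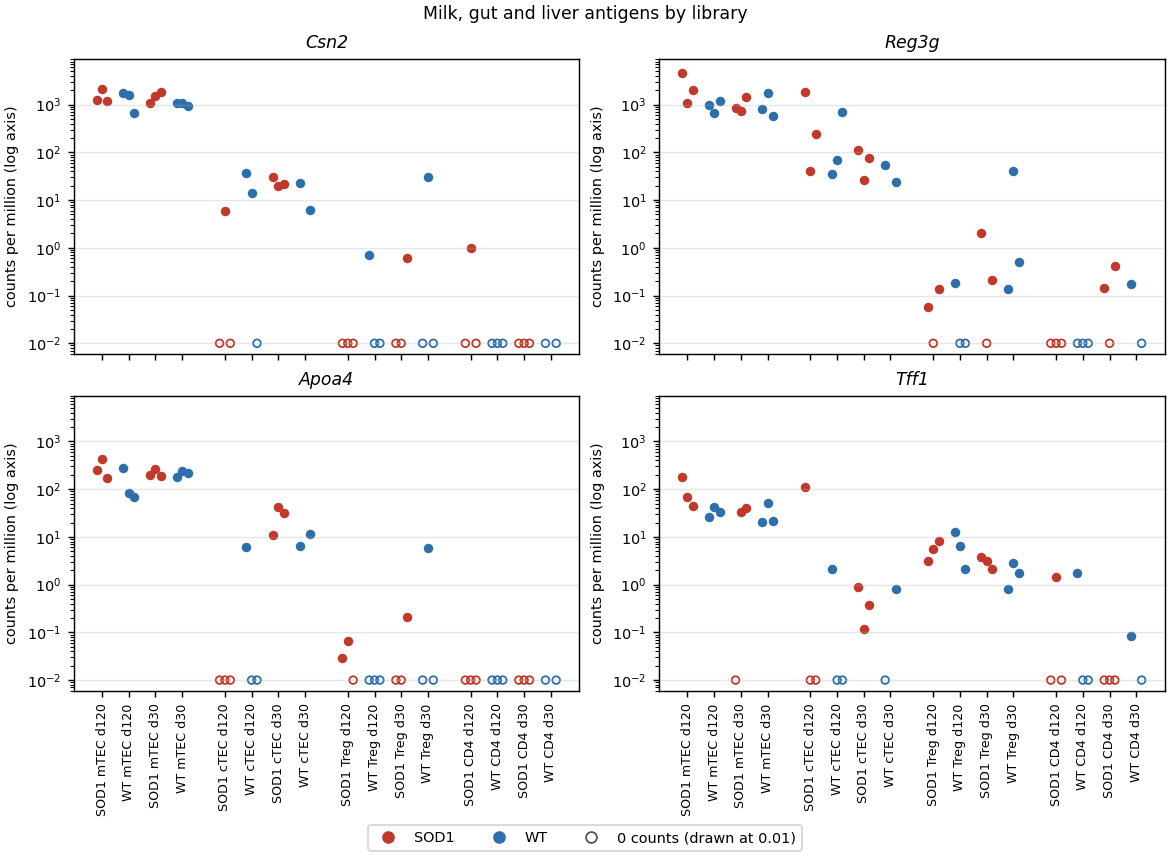
CPM of Csn2, Reg3g, Apoa4 and Tff1 in each sorted library on a log axis, SOD1 in red and WT in blue; open circles at the bottom are libraries with 0 counts. mTEC libraries are the highest for Csn2 and Apoa4. Reg3g and Tff1 each have a SOD1 cTEC d120 library within the mTEC range, and Reg3g also has WT cTEC d120 replicate 3 there (699 CPM). WT Treg d30 replicate 2 is the lone Treg point near 41 CPM for Reg3g and 31.0 CPM for Csn2. Tff1 has values between 0.828 and 12.6 CPM in all Treg libraries.

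The series is about the thymus in this model of motor neuron disease, and SOD1 and WT mTEC were compared on these antigens. No member passed the test at d120 or at d30. At d120, 40 members were tested with edgeR and 7 had an unadjusted p under 0.05. With the replicate block, median-of-ratios scaling, trended dispersion or library totals, 1377 to 2016 of all 18919 genes had an unadjusted p under 0.05. After adjustment, 1.14% of all genes were called in the main fit. DESeq2 and trended dispersion also called none of the members. At d30 the 40 members gave 0 with an unadjusted p under 0.05, and 0.0106% of all genes were called. Atp4a and Reg3b were higher in each SOD1 than in each WT library at d30, as for 1.82% of all genes, and Tg was lower in each, as for 9.41%. Atp4a had 66.1 (1 count), 58.3 and 40.3 CPM in SOD1 mTEC d30, against 35.5, 36.9 and 37.3 CPM in WT mTEC d30. SOD1 replicate 1 held only 15135 counts, so its Reg3b value was also 1 count, and its Tg value was 0. At d120 the fitted change was positive in SOD1 for 27 of the 40 members, with a median log2 fold change of 0.57 over the members and 0.05 over all genes. The share of all genes with a positive change was not computed, so this count is not shown to be particular to the members. At d30 the medians were 0.12 over the members and -0.08 over all genes. The change of genotype effect between the days passed for none (edgeR, 0.00529% of all genes called). Of the members, 4 had an unadjusted p under 0.05, as did 686 to 1005 of all 18919 genes in the alternative fits just named.

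The member with the smallest p at d120 was Wap, whey acidic protein of milk. It had 0.692, 1.76 and 1.87 CPM in SOD1 mTEC d120, against 0.447, 22.7 and 41.5 CPM in WT mTEC d120 (log2 fold change -3.90, SE 1.40, edgeR adjusted p = 0.171). The low WT library fell below all 3 SOD1 libraries. Tff1 had 177, 68.6 and 43.6 CPM in SOD1 mTEC d120, against 26.4, 42.4 and 33.3 CPM in WT mTEC d120 (log2 fold change 1.54, SE 0.58, edgeR adjusted p = 0.215). The 3 SOD1 values all exceeded the 3 WT values, as for 4.53% of all genes. Ins2 had 8.18, 8.02 and 3.74 CPM in SOD1 mTEC d120, against 15.7, 28.3 and 19.5 CPM in WT mTEC d120 (log2 fold change -1.61, SE 0.66, edgeR adjusted p = 0.288). Here the 3 SOD1 values were all under the 3 WT values, as for 2.66% of all genes. Tff2 had 148, 12.2 and 1.25 CPM in SOD1 mTEC d120, against 2.49, 10.4 and 9.77 CPM in WT mTEC d120, so its log2 fold change of 2.93 (SE 1.15, edgeR adjusted p = 0.248) rested on SOD1 replicate 1. Reg3g, with a log2 fold change of 1.47 (SE 0.60, edgeR adjusted p = 0.288), was likewise highest in that library. Single libraries decided several of these values. Without WT replicate 1 at d120, Wap (log2 fold change -4.48, edgeR adjusted p = 0.00235), Apoa4 (1.97, edgeR adjusted p = 0.00178) and Apoa1 (1.97, edgeR adjusted p = 0.0395) were called. Without SOD1 replicate 3, Tff1 and Tff2 were called (edgeR adjusted p = 0.0452 and 0.0167), and without SOD1 replicate 1 or WT replicate 3 it was 1 member, Rbp3 or Umod, each with counts in few libraries.

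**Figure D5:**
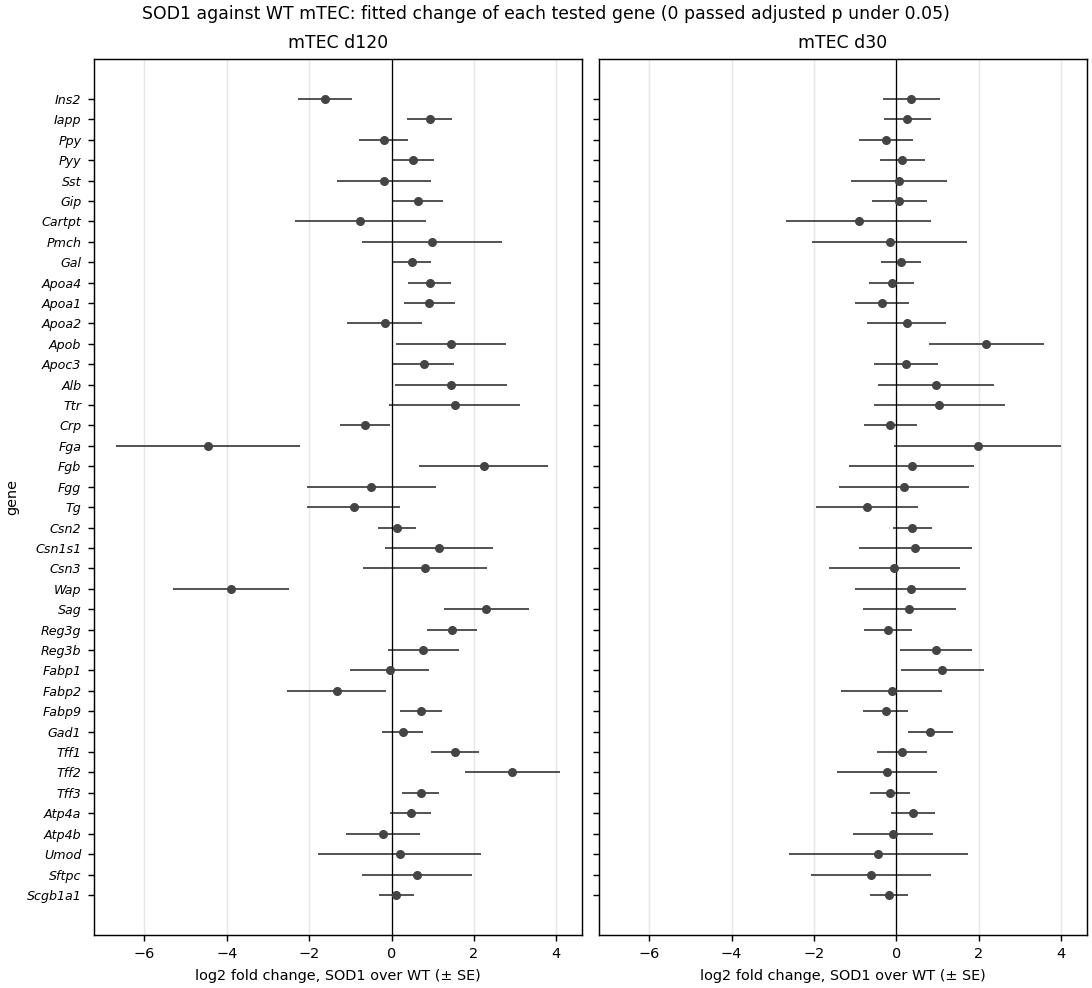
Fitted log2 fold change, SOD1 over WT, with its SE for the 40 tested genes in mTEC at d120 (left) and d30 (right). Values at d30 lie close to 0 for most genes; at d120 they spread from -4.45 (Fga) to 2.93 (Tff2), and none passed the adjusted test.

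None of 8 regulators or of 16 tested lineage factors was called between SOD1 and WT mTEC on either day (edgeR; at d120, 0 regulators and 5 lineage factors had an unadjusted p under 0.05). In cTEC, 12 members were tested between genotypes and none passed at d120 (edgeR, 3 at an unadjusted p under 0.05, 0.308% of all genes called) or at d30 (1 at an unadjusted p under 0.05, 0.0274% called). DESeq2 called none of them either. Over all 14620 genes, 815 to 1710 had an unadjusted p under 0.05 at d120 and 47 to 64 at d30. These ranges span the edgeR fits with the replicate block, median-of-ratios scaling, trended dispersion or library totals.

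Outside the sorted cells the members were scarce. In whole thymus at d120, deposited as TPM, a transcript share of each library scaled by length, 37 members were above 0 in some library and 6 averaged 1 TPM or more. Reg3g had 3.06, 4.19 and 3.04 TPM in SOD1 thymus, against 3.69, 0.222 and 1.09 TPM in WT thymus. Csn2 had 2.21, 5.49 and 0.929 TPM in SOD1 thymus, against 5.24, 0.718 and 1.21 TPM in WT thymus. The genotypes overlapped for both, and none of the 6 passed limma's test on log2(TPM + 1) or had an unadjusted p under 0.05 (0.0831% of all genes called). In bulk tissue fewer mTEC and less RNA per mTEC cannot be told apart. In lymph node no member passed the filter, and the largest values were 19 counts of Gad1 and 13 of Sag.

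In cultured Treg, Sst was present before activation and lower after it. It had 10.1, 10.8 and 20.98 CPM in SOD1 and 12.4, 7.94 and 8.03 CPM in WT libraries at T0. At T2 it had 0.980, 0 and 0 CPM in SOD1 and 0, 0 and 0.645 CPM in WT. At T20 it had 0.723, 4.67 and 0 CPM in SOD1 and 0.609, 1.79 and 0.180 CPM in WT. Every T0 library lay above every later one, and the share of all genes that did so was not computed. Depth was low in SOD1 T2 replicate 3 (228184 counts), WT T2 replicate 1 (171619), SOD1 T20 replicate 2 (214318) and SOD1 T20 replicate 3 (285528). There 3 counts stand for 10.5 to 17.5 CPM, so low values in these libraries say little against the T0 levels. The log2 fold change was -4.63 at T2 (SE 0.66, edgeR adjusted p = 2.27e-11) and -4.16 at T20 (SE 0.64, edgeR adjusted p = 9.1e-10), both against the same T0 libraries. Of 3 members tested, Sag was also lower at T2 (log2 fold change -2.13, edgeR adjusted p = 0.00814) and T20 (-1.71, edgeR adjusted p = 0.026), and Tg did not pass. Leaving out 1 culture library moved the count between 1 and 4 members at either time. The lower calls sat among 36.1% of all genes called lower at T2 and 36.1% at T20.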

How the data were processed

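Libraries were made with the SMARTseq v4 low input kit after digestion and sorting, per the labels' protocols. Gene counts of sorted cells, lymph nodes and cultures were used as deposited by the authors. Whole thymus values are TPM, as deposited by the authors. The submitters' processing notes name mm10 and DESeq2 without a role; no aligner, counter or use of strand is given in the sources used here. No column of the tables was left unused (0), and no row without a gene name was counted. The members, the 14 other gene lists and the tests were chosen with earlier results of these data known.

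Counts were tested over all genes with edgeR 4.0.16 (R 4.3.3; TMM scaling, filterByExpr by group, quasi-likelihood with tagwise dispersion), with all groups of a population, or all 46 sorted libraries for T cell comparisons, in 1 fit, and Benjamini-Hochberg adjusted p under 0.05 as the call. mTEC and cTEC entered 1 fit of 23 libraries. Whole thymus was tested with limma 3.58.1 (trend) on log2(TPM + 1), keeping genes that averaged 1 TPM or more; counts had been planned for, and TPM values allow no count test and carry no depth. On simulated counts with 200 changed genes, tagwise dispersion gave 43 false calls among 184 for SOD1 versus WT mTEC d120 and 27 among 159 for mTEC versus cTEC d30, over 2 draws, and trended dispersion 0 among 87 and 3 among 103; the trended count is therefore given where it changes a count of calls in the small sets. Alternatives were median-of-ratios scaling, DESeq2 1.42.0, trended dispersion, no filter, the replicate number as a block, library totals without TMM and each library left out. Same-numbered Treg and CD4 libraries deviated together at d30, with correlations of 0.162 to 0.252 in all 5 pairs, and the replicate block called the same 3 members there (Csn2, Reg3g and Tff1); the labels state no shared source. The comparisons of Treg with CD4 and of culture times were added after seeing the data.

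Each of the 42 members is given by level or range, and of each other list up to 4 called genes with the smallest p are named; some genes of those lists are not reported here. Exon lengths are unions of GENCODE M21 exons. Replicates are separate samples by label; nothing says that they came from separate mice, so p-values measure the spread between these samples, which may be technical.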

Additional observations from a re-analysis of the deposited data

Results flagged for a closer look

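Between the days, the difference of mTEC over cTEC changed for 5 members by a test of the difference itself (edgeR's quasi-likelihood test, adjusted over all genes). On the log2 scale the gap was larger at d120 than at d30 by 6.52 for Apoa4 (adjusted p = 3.27e-05), 8.21 for Fabp9 (adjusted p = 0.00233), 7.62 for Scgb1a1 (adjusted p = 0.0066), 5.94 for Apoa1 (adjusted p = 0.016) and 7.51 for Fabp1 (adjusted p = 0.03). Fabp9, Scgb1a1 and Apoa1 lost the call with the replicate number as a block, Scgb1a1 and Apoa1 with trended dispersion, and Fabp1 under 11 of its alternatives. Groups of 3 were not examined for single outlying samples.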

How the results depend on the processing

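The count of members called was within 1.5 times the reported one except as follows. With the replicate number as a block, 2 members were called for the change of the mTEC-cTEC gap between days, 1 for d120 versus d30 mTEC and 1 for Treg versus CD4 d120. With DESeq2, 11 were called for cTEC versus T cells d120, 2 for Treg versus CD4 d120, 0 for d120 versus d30 mTEC and 4 for culture T2 versus T0. With trended dispersion, 2 were called for the change of the mTEC-cTEC gap, 1 for Treg versus CD4 d30, 0 for d120 versus d30 mTEC and 0 for d120 versus d30 cTEC. With no filter, 5 were called for d120 versus d30 cTEC and 7 each for T2 and T20 versus T0. With library totals, 1 was called for d120 versus d30 mTEC and 1 for T20 versus T0. The cause was not tested. Same-numbered SOD1 and WT libraries deviated together with correlations of -0.074 to 0.215, mTEC and cTEC with -0.084 to 0.071, mTEC and T cells with -0.002 to 0.187 and cTEC and T cells with -0.061 to 0.203. Not every pair passed 0.1 in these sets, and their numbers were not taken as pairs in the main fits. Some groups passed 0.1 throughout. cTEC with Treg or CD4 in SOD1 d30 had 0.107 to 0.203, and mTEC with Treg or CD4 in WT d30 had 0.103 to 0.187. The column headers at d120 give all sorted populations of a genotype the same sample numbers. A low correlation cannot exclude that same-numbered populations came from the same mouse, and the main fits take them as independent. Treg and CD4 deviated together with 0.068 to 0.139 at d120, where 5 of 6 pairs passed 0.1.

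Leaving out 1 library, or for T cell comparisons all of 1 replicate number, the calls ranged from 37 to 38 (mTEC versus T cells d120), 37 to 39 (d30), 2 to 6 (cTEC versus T cells d120), 11 to 23 (d30), 0 to 1 (Treg versus CD4 d120), 0 to 4 (d30), 33 to 35 (mTEC versus cTEC d120), 27 to 36 (d30, lowest without WT cTEC d30 replicate 3), 3 to 8 (change of that gap, lowest without WT cTEC d30 replicate 2), 0 to 3 (SOD1 versus WT mTEC d120), 0 to 0 (d30), 0 to 2 (its change between days), 0 to 5 (d120 versus d30 mTEC), 2 to 5 (d120 versus d30 cTEC), 1 to 4 (T2 versus T0) and 1 to 4 (T20 versus T0). They were 0 to 0 for SOD1 versus WT in cTEC d120, cTEC d30, its change between days, lymph node and whole thymus. Where a group is left with 1 library, its spread is taken from the other groups. The median number of members detected in mTEC d30 was 35.8 at 200000 counts, 41.7 at 3000000 counts and 37.4 when 3 counts were required; in cTEC d30 it was 9.57, 26.6 and 9.09 by the same settings, and in cTEC d120 8.97 at 3000000 counts, from SOD1 replicate 2, the lone library deep enough. Over the members called in a comparison, and the uncalled ones whose fold change or call the text gives, 3637 values kept direction and side of the threshold, 175 lost the call, 10 gained it and 8 turned direction or became 0; other members were not followed in this count. In SOD1 versus WT cTEC d120, Apoa4 and Pyy became 0 once WT replicate 1 or SOD1 replicate 3, the lone library with counts, was left out. Leaving out 1 library, the log2 fold change ranged from -7.68 to 0 for Apoa4 and from 0 to 9.22 for Pyy. In SOD1 versus WT mTEC d120 it ranged from -0.083 to 3.51 for Tff2 and from -0.77 to 9.45 for Umod, and Umod was at -0.018 with median-of-ratios scaling and at -0.022 with DESeq2. Over all genes, 216 were called for SOD1 versus WT mTEC d120, 21 with the block, 79 with DESeq2, 94 with no filter and 1 with trended dispersion. Depth limits the d120 cTEC values, where 3 counts over the group stand for 0.243 CPM.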
